A study of Homo sapiens with 18 samples.

Results

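The 9 genes described here encode secreted factors that act on blood vessels: VEGFA, VEGFB, VEGFC, PGF, ANGPT1, ANGPT2, ANGPTL4, ADM and EDN1. They were chosen by name, as vascular endothelial growth factor (VEGF) ligands, angiopoietins and related vascular ligands, not by a threshold on their values, with earlier results of these data known. All 9 had a row among the 26443 genes of the deposited RPKM table (reads per kilobase of gene model, scaled to the library's total, so that levels can be compared between genes). Of the 9, 5 reached 1 RPKM or more in 3 or more of the 18 libraries and were tested (VEGFA, VEGFB, ANGPT2, ADM and EDN1). PGF and ANGPTL4 were above 0 but under that limit, and VEGFC and ANGPT1 were listed at 0 in all 18 libraries. The cells were LNCaP, an established human prostate cancer line, in 6 groups of 3 libraries. The groups are called shFOXA1+shHIF1A (lentiviral shRNAs against both genes), shHIF1A, shFOXA1+KC7F2, KC7F2 (control vector pGIPZ with the compound), shFOXA1 and control (pGIPZ alone). KC7F2 is a small-molecule inhibitor of HIF1A and was given at 40 µM for 24 h. All groups, control included, carried lentivirus for 5 days and received 100 µM CoCl2, which mimics hypoxia and stabilises HIF1A protein, for the final 24 h, so no group lacked the hypoxia mimic. The sources used here do not give the vehicle of KC7F2, the vector of the HIF1A shRNA or any second vector in cells with a single shRNA. Nor do the labels say that the 3 libraries of a group came from separate cultures, so a p-value measures only the spread between these libraries, which may be technical.

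VEGF ligands bind receptor tyrosine kinases on endothelial cells and drive vessel growth and permeability. Angiopoietins act through the TIE2 receptor, which ANGPT1 activates to keep vessels quiet and ANGPT2 mostly antagonises, while adrenomedullin (ADM) dilates vessels and endothelin-1 (EDN1) constricts them. Many of these genes are known to be induced under low oxygen, when the hypoxia-inducible factor HIF1A escapes degradation and binds DNA with its partner ARNT. FOXA1 is a forkhead transcription factor that opens chromatin in luminal prostate cells, where the androgen receptor then binds. The comparisons ask how a knockdown of FOXA1 changes these ligands under a hypoxia mimic, and whether the change is still present when HIF1A is knocked down or inhibited.

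The targets of both shRNAs were lower in the cells that carried them. FOXA1 averaged 34.1 ± 1.51 RPKM in shFOXA1 and 97.5 ± 22.7 RPKM in control (SD, n = 3 each), 64.5 ± 5.77 RPKM in shFOXA1+shHIF1A against 120 ± 3.06 RPKM in shHIF1A, and 39.3 ± 4.59 RPKM in shFOXA1+KC7F2 against 103 ± 20.0 RPKM in KC7F2. The FOXA1 level left in shFOXA1+shHIF1A was thus above that in shFOXA1 (log2 difference 0.91 ± 0.16 SE, adjusted p = 0.000302). HIF1A averaged 4.32 ± 0.245 RPKM in shFOXA1+shHIF1A, 3.56 ± 0.642 RPKM in shHIF1A, 62.8 ± 10.6 RPKM in shFOXA1+KC7F2, 17.3 ± 5.18 RPKM in KC7F2, 89.9 ± 9.0 RPKM in shFOXA1 and 23.1 ± 7.91 RPKM in control. HIF1A mRNA was thus higher after FOXA1 knockdown, both in shFOXA1 against control (log2 difference 2.00 ± 0.23, adjusted p = 8.36e-06) and in shFOXA1+KC7F2 against KC7F2 (1.86 ± 0.23, adjusted p = 1.99e-05). KC7F2 did not change it past the test, either against control (-0.38 ± 0.23, adjusted p = 0.559) or on top of FOXA1 knockdown (-0.52 ± 0.23, adjusted p = 0.275, with no overlap of the libraries). HIF1A protein was not measured here, so these values do not show whether KC7F2 inhibited HIF1A. Depth, recovered from the spacing of the values, ran from 3.26 to 12.1 per library (in 1e6 reads) and was lower in the groups with the FOXA1 shRNA. All 11 prostate luminal markers were present in every library (KLK3 at 267 to 958 RPKM). Of 11 endothelial markers 9 stayed under 1 RPKM in every library, the exceptions being VWF and EGFL7, as did 6 of 8 fibroblast markers (not COL1A1 and COL3A1) and 7 of 8 leukocyte markers (not CD68). The summed luminal markers came to 929 to 1053 RPKM in shFOXA1+shHIF1A, 1122 to 1297 RPKM in shHIF1A, 1593 to 1694 RPKM in shFOXA1+KC7F2, 1641 to 1755 RPKM in KC7F2 and 1538 to 1674 RPKM in shFOXA1, against 1838 to 2299 RPKM in control. The summed fibroblast markers came to 5.31 to 5.94 RPKM in shFOXA1+shHIF1A and 7.98 to 9.30 RPKM in shHIF1A, against 2.62 to 3.50 RPKM in control, and lay between 2.24 and 4.04 RPKM in the other 3 groups. The summed leukocyte markers came to 10.6 to 12.1 RPKM in shFOXA1+shHIF1A, 12.1 to 13.5 RPKM in shFOXA1+KC7F2 and 18.9 to 19.9 RPKM in shFOXA1, against 6.42 to 8.76 RPKM in control, and lay between 4.31 and 6.73 RPKM in shHIF1A and KC7F2. Over the 18 libraries CD68 ran from 3.57 to 19.3 RPKM, COL1A1 from 1.64 to 7.28 RPKM and COL3A1 from 0.257 to 1.86 RPKM, while PTPRC, DCN and COL1A2 were at or under 0.189 RPKM. The fibroblast and leukocyte sums thus rest mainly on COL1A1, COL3A1 and CD68, and do not show that such cells were present in this cell line. The part of these differences in the results was not tested. In such bulk RNA, fewer cells of a type and less RNA per cell cannot be told apart.

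The 5 tested factors did not move as 1 group. FOXA1 knockdown changed 4 of 5, with VEGFA and ADM rising and ANGPT2 and EDN1 falling, where 24.1% of all 12900 tested genes changed. HIF1A knockdown changed 3 of 5, with EDN1 rising and ANGPT2 and VEGFB falling, where 42% of all genes changed. KC7F2 raised ANGPT2 and no other member, where 2.04% of all genes changed. The median log2 difference of the 5 members was -0.48 in shFOXA1, -0.08 in shHIF1A and 0.15 in KC7F2, each against control, beside -0.09, 0.07 and 0.07 over all tested genes. These comparisons share the control libraries. The count under FOXA1 knockdown was 2 in place of 4 without control 1, control 2, shFOXA1 1 or shFOXA1 2.

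**Figure D1:**
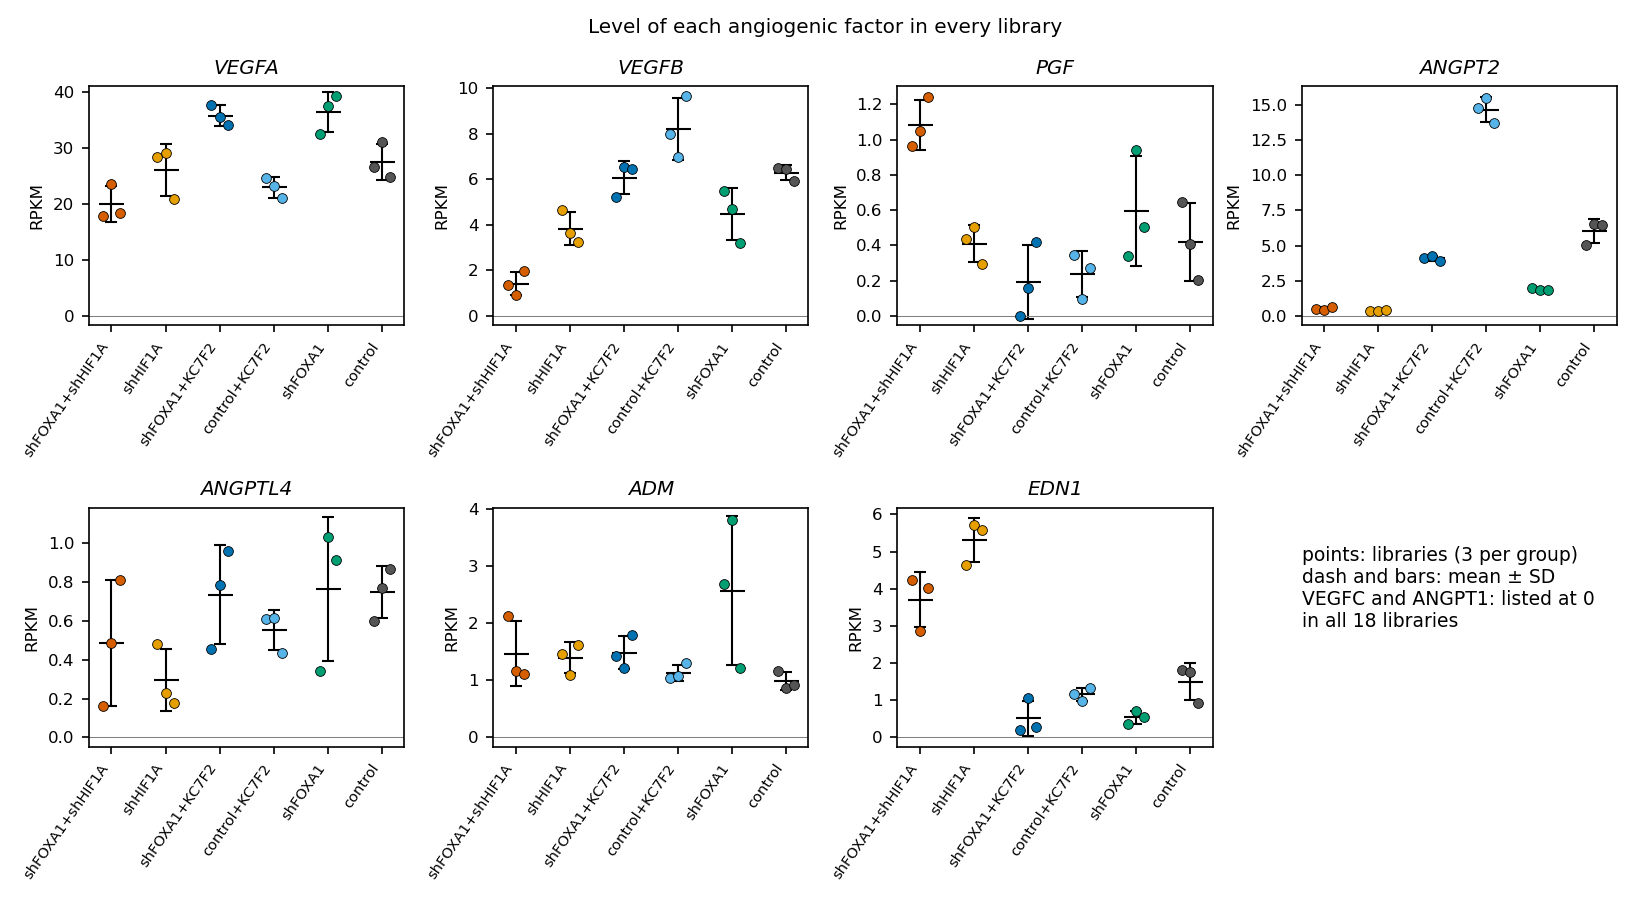
Level in RPKM (vertical axes, 1 panel per gene) of the 7 factors above 0, in each of the 18 libraries by group (horizontal axes), with the mean and SD of each group. ANGPT2 is under 1 RPKM in all 6 libraries with the HIF1A shRNA and between 13.7 and 15.5 RPKM in the 3 KC7F2 libraries, whereas EDN1 is between 2.87 and 5.71 RPKM in those 6 libraries and at most 1.80 RPKM in the other 12.

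On top of FOXA1 knockdown, the HIF1A shRNA changed 4 of 5 members, beside 37.5% of all genes: EDN1 rose and VEGFA, VEGFB and ANGPT2 fell. KC7F2 on top of FOXA1 knockdown changed only ANGPT2 among the 5, beside 4.08% of all genes. Read the other way, FOXA1 knockdown in HIF1A-depleted cells changed only VEGFB among the 5 members (14.5% of all genes), and FOXA1 knockdown in KC7F2-treated cells changed VEGFA, ANGPT2 and EDN1 (32.9% of all genes). The effect of FOXA1 knockdown differed between cells with and without the HIF1A shRNA for VEGFA and ANGPT2 (7.61% of all genes). This count was 1 in place of 2 without shHIF1A 1, shHIF1A 2, shFOXA1+shHIF1A 1 or shFOXA1+shHIF1A 3. The count for KC7F2 on top of FOXA1 knockdown was 2 in place of 1 without shFOXA1 3, and that for FOXA1 knockdown in HIF1A-depleted cells was 2 in place of 1 without shHIF1A 3 or shFOXA1+shHIF1A 2. Between cells with and without KC7F2 the effect of FOXA1 knockdown differed for 0 of 5 members at an adjusted p under 0.05, for 0 of 5 at an unadjusted p under 0.05 in limma, and for 0 of 5 in a limma fit with voom weights to the recovered reads (0.0775% of all genes). Set directly against each other, shHIF1A and KC7F2 differed in 3 of 5 members (42.6% of all genes), and shFOXA1+shHIF1A and shFOXA1+KC7F2 in 4 of 5 (36.6% of all genes). Median-ratio scaling moved the median of all genes by more than 0.1 in 3 comparisons: in shFOXA1+KC7F2 against KC7F2 it was -0.15 as deposited and 0.0039 after scaling, in shFOXA1+shHIF1A against shFOXA1 it was 0.10 and -0.0068, and in shFOXA1+shHIF1A against shFOXA1+KC7F2 it was 0.09 and -0.01.

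**Figure D2:**
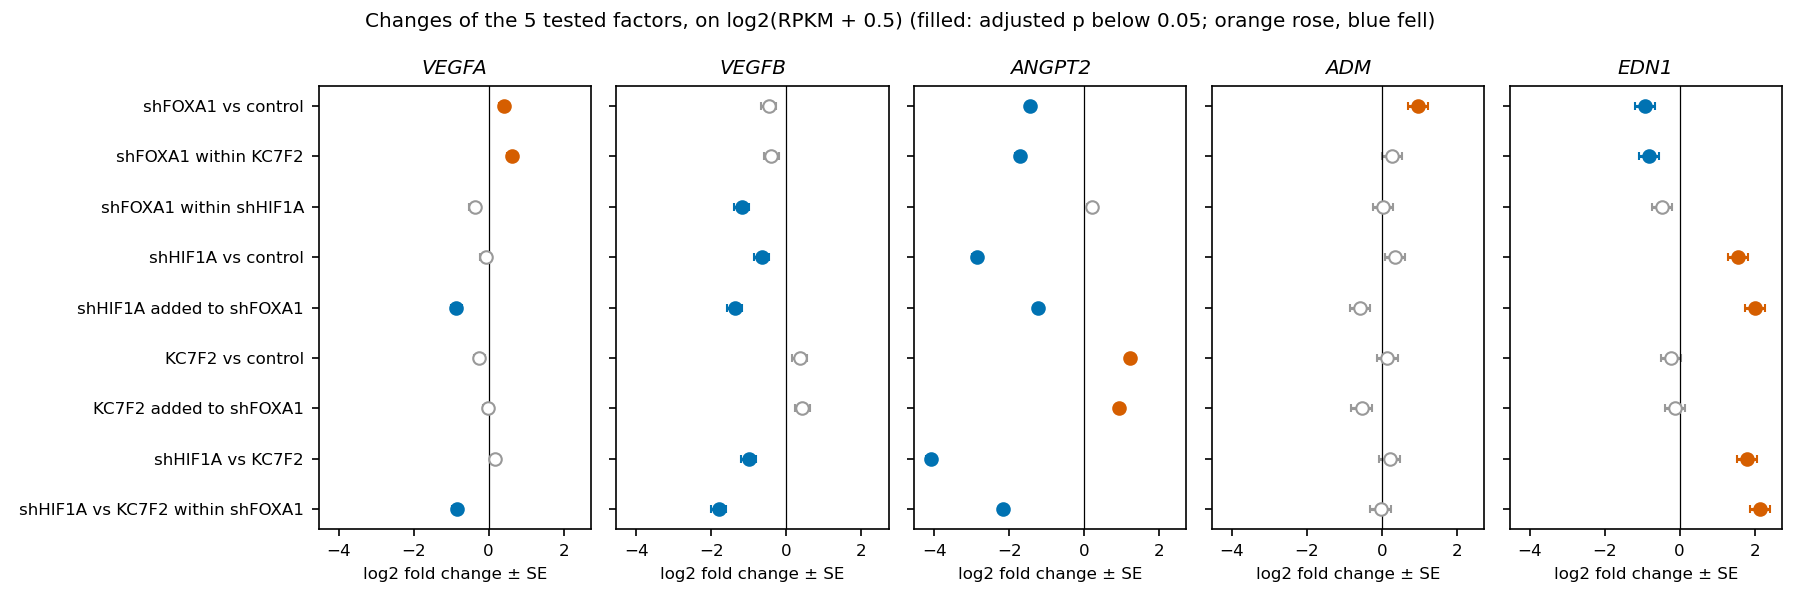
Difference in log2(RPKM + 0.5) with its standard error (horizontal axes) of the 5 tested factors, 1 panel each, in 9 comparisons (rows). Filled points have an adjusted p under 0.05, orange for higher and blue for lower in the group named first. In all 4 comparisons of cells with the HIF1A shRNA against cells without it, ANGPT2 is lower and EDN1 is higher, and ANGPT2 is higher in both comparisons of KC7F2 with cells free of it.

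VEGFA, the main VEGF ligand and a classical HIF target, lies on chromosome 6 (GRCh38, chr6:43770184-43786487, plus strand) and was the most abundant of the 9 factors in every library, at 17.8 to 39.3 RPKM from 219 to 1362 reads. VEGFA stood at 32.6, 37.5 and 39.3 RPKM in shFOXA1, against 26.6, 31.1 and 24.8 RPKM in control. The 3 shFOXA1 libraries were all above the 3 control libraries (log2 difference 0.40 ± 0.14 SE, adjusted p = 0.0431). The call was close to its threshold: 11 of 30 other settings lost it, among them leaving out control 1 (adjusted p = 0.105), control 3 (0.108), shFOXA1 2 (0.106), shFOXA1 3 (0.147) or any of the shFOXA1+KC7F2 libraries (0.0515 to 0.0542). In KC7F2-treated cells the same knockdown gave 37.8, 35.5 and 34.1 RPKM in shFOXA1+KC7F2, against 24.7, 23.2 and 21.1 RPKM in KC7F2. Here too the groups did not overlap, and VEGFA rose by 0.63 ± 0.14 on the log2 scale (adjusted p = 0.00247). In control 1, KC7F2 1 and KC7F2 3 short genes read high relative to long ones. Without these libraries the VEGFA difference was 0.61 and lost its call. That fit leaves only KC7F2 2 in its group. With all libraries kept and the length trend removed, the call held. That removal took VEGFA as 14431 bases long, all its GENCODE exons together, whereas its RPKM values rest on a gene model of 3778 bases.

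In HIF1A-depleted cells VEGFA was not higher after FOXA1 knockdown. It stood at 17.8, 23.6 and 18.4 RPKM in shFOXA1+shHIF1A, against 28.4, 29.1 and 20.8 RPKM in shHIF1A. These groups overlapped, and the log2 difference of -0.37 ± 0.14 did not pass the test (adjusted p = 0.0815), though it did without shHIF1A 3 (-0.53, adjusted p = 0.0166) or without shFOXA1+shHIF1A 2 (-0.50, adjusted p = 0.0344). The effect of FOXA1 knockdown on VEGFA thus differed by -0.78 ± 0.19 on the log2 scale between cells with and without the HIF1A shRNA (adjusted p = 0.0210). That difference lost its call in 7 of 30 other settings, with adjusted p between 0.0514 and 0.0626, among them leaving out shHIF1A 1, shHIF1A 2, shFOXA1 3, shFOXA1+shHIF1A 1 or shFOXA1+shHIF1A 3. Adding the HIF1A shRNA to FOXA1 knockdown lowered VEGFA (log2 difference -0.86 ± 0.14, adjusted p = 0.000127), and all 3 shFOXA1+shHIF1A libraries were below all 3 shFOXA1 libraries. With FOXA1 intact, by contrast, the HIF1A shRNA left VEGFA at 26.1 ± 4.57 RPKM, against 27.5 ± 3.27 RPKM in control (log2 difference -0.08 ± 0.14, adjusted p = 0.670). KC7F2 libraries were all below control for VEGFA, but the difference of -0.25 ± 0.14 did not pass the test (adjusted p = 0.513), nor did that of -0.02 ± 0.14 when KC7F2 was added to FOXA1 knockdown (adjusted p = 0.969). Direct comparison gave a lower VEGFA level in shFOXA1+shHIF1A than in shFOXA1+KC7F2 (-0.84 ± 0.14, adjusted p = 0.000167), and a difference of 0.17 ± 0.14 between shHIF1A and KC7F2 (adjusted p = 0.354).

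VEGFB, a ligand of VEGF receptor 1 known mainly for effects on heart and fat, lies on chromosome 11 (chr11:64234538-64238793, plus strand) and was read 8 to 174 times per library. The 250 bases before its RefSeq start, shown because VEGFB was lower with the HIF1A shRNA and lowest with both shRNAs, hold 1 HIF core motif in capitals and no forkhead motif (GRCh38.p14, chr11:64234334-64234583, plus strand).
VEGFB: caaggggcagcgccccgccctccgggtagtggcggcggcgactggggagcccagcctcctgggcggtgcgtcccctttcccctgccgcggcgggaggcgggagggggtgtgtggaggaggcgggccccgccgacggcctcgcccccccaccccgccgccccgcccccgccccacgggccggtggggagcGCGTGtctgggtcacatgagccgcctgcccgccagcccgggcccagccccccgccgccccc
The HIF core was searched as ACGTG or GCGTG on both strands, and 48.4% of all 35116 RefSeq promoter windows of 300 bases (250 before to 50 after a start) hold at least 1. Forkhead motifs were TGTTTAC or TGTTTGC and likewise TATTTAC or TATTTGC, on both strands, and 12.1% of windows hold at least 1. In the printed sequences no HIF core match shares letters with a forkhead match, and a match describes the sequence only. The windows of VEGFC, PGF and ANGPTL4, not printed, also hold a HIF core match, although VEGFC had no reads in any library. No window is shown for VEGFA or ANGPT2.

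VEGFB stood at 1.36, 0.940 and 1.97 RPKM in shFOXA1+shHIF1A, against 5.47, 4.72 and 3.21 RPKM in shFOXA1. It stood at 4.65, 3.64 and 3.24 RPKM in shHIF1A, against 6.48, 6.46 and 5.91 RPKM in control. In both pairs every library with the HIF1A shRNA was below every library without it. VEGFB fell by 1.38 ± 0.20 on the log2 scale in shFOXA1+shHIF1A against shFOXA1 (adjusted p = 4.96e-05) and fell by 0.66 ± 0.20 in shHIF1A against control (adjusted p = 0.0143, or 0.0626 without shHIF1A 3). FOXA1 knockdown lowered VEGFB in HIF1A-depleted cells (-1.20 ± 0.20, adjusted p = 0.000644). Without the HIF1A shRNA, the 3 shFOXA1 libraries were below the 3 control libraries, but the difference of -0.48 ± 0.20 did not pass the test (adjusted p = 0.0949). The difference between these FOXA1 effects, -0.72 ± 0.28, did not pass either (adjusted p = 0.146).

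KC7F2 did not change VEGFB past the test. The gene stood at 7.98, 6.98 and 9.66 RPKM in KC7F2 and averaged 6.28 ± 0.325 RPKM in control (SD, n = 3), with no overlap and a log2 difference of 0.35 ± 0.20 (adjusted p = 0.527). It stood at 5.24, 6.54 and 6.45 RPKM in shFOXA1+KC7F2, where the difference from shFOXA1 was 0.43 ± 0.20 (adjusted p = 0.301). VEGFB was lower in shHIF1A than in KC7F2 (-1.01 ± 0.20, adjusted p = 0.00071) and lower in shFOXA1+shHIF1A than in shFOXA1+KC7F2 (-1.80 ± 0.20, adjusted p = 3.2e-06). Without control 1, KC7F2 1 and KC7F2 3, which leaves only KC7F2 2 in its group, the first of these was -0.80 and lost its call. With all libraries kept and the length trend removed, the call held.

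The other VEGF ligands were scarce. VEGFC, which acts on lymphatic vessels, was listed at 0 in all 18 libraries, as were 4524 genes (17.1%) of the table. PGF, placental growth factor, a ligand of VEGF receptor 1, had 0 to 20 reads per library. PGF stood at 0.964, 1.05 and 1.24 RPKM in shFOXA1+shHIF1A, against 0.340, 0.943 and 0.506 RPKM in shFOXA1 and 0.434, 0.504 and 0.294 RPKM in shHIF1A. The 3 libraries with both shRNAs were the 3 highest of the 18. With KC7F2, PGF was listed at 0, 0.156 and 0.418 RPKM in shFOXA1+KC7F2 and stood at 0.346, 0.0941 and 0.270 RPKM in KC7F2, against 0.645, 0.407 and 0.203 RPKM in control. In a fit without the limit on low values, over 21919 genes and added after the values were seen, PGF was higher in shFOXA1+shHIF1A than in shFOXA1+KC7F2 (log2 difference 1.24 ± 0.25, adjusted p = 0.00192), groups that rest on 39 and 9 reads in total. Its difference between shFOXA1+shHIF1A and shHIF1A was 0.80 ± 0.25 (adjusted p = 0.0581), and PGF passed the test in no other comparison of that fit.

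**Figure D3:**
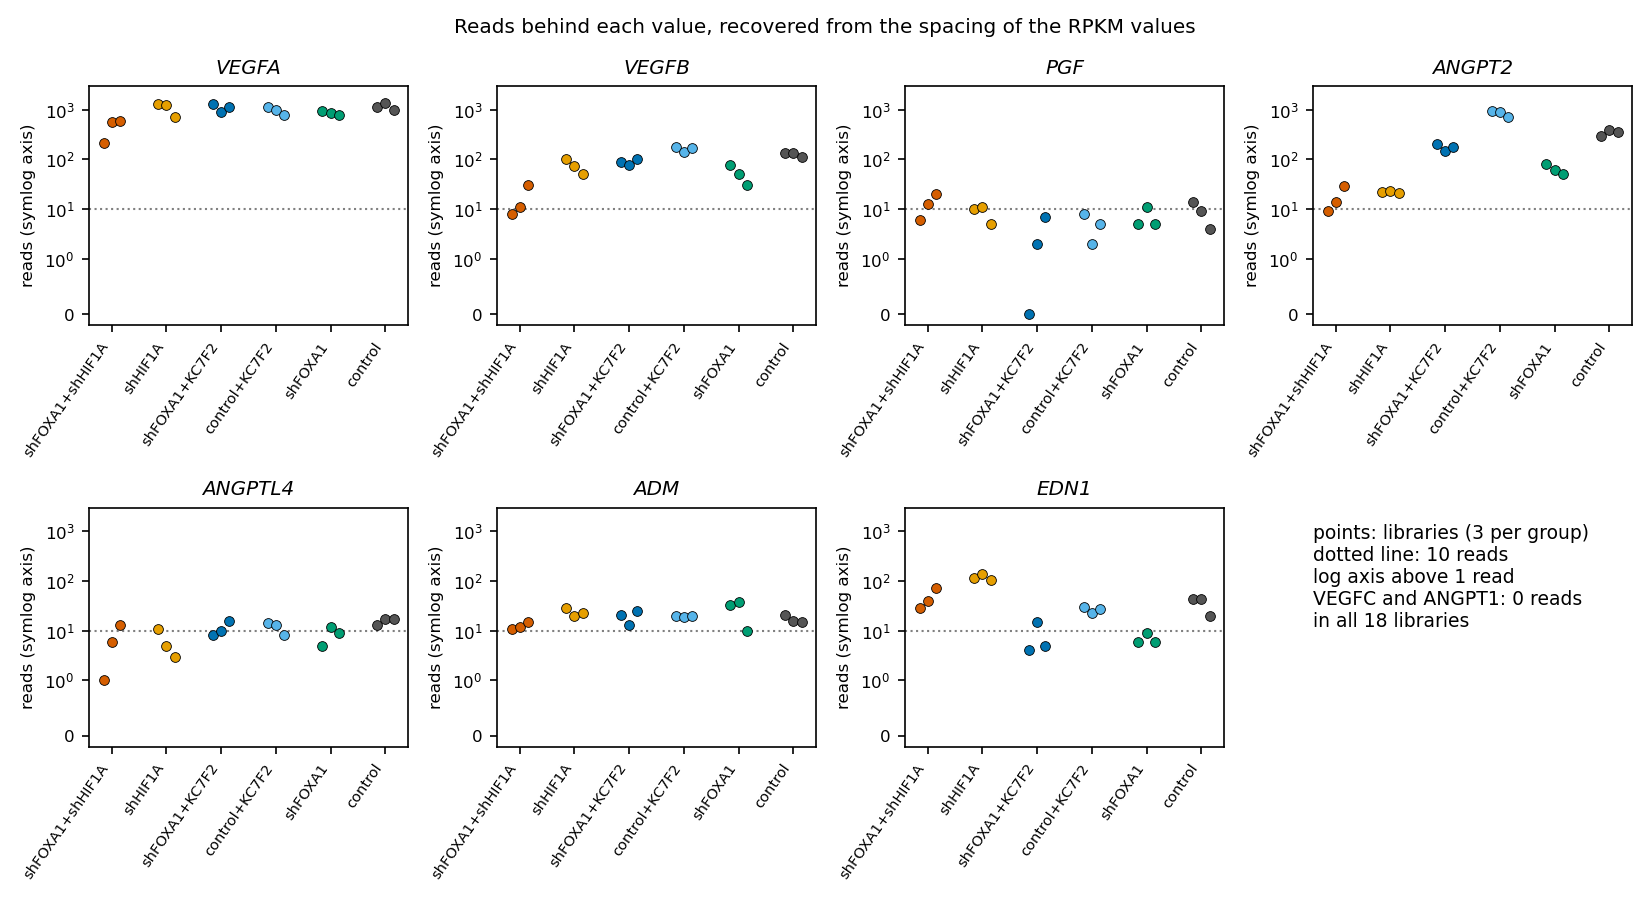
Whole reads behind each value (vertical axes, logarithmic above 1 read, with a dotted line at 10 reads) for the 7 factors above 0 in each library, by group. VEGFA has at least 219 reads in every library, while PGF never exceeds 20, ANGPTL4 17 and ADM 37.

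ANGPT2, on chromosome 8, had the widest range of the 5 tested factors on the log2 scale. Its counterpart ANGPT1 was listed at 0 in all 18 libraries. ANGPT2 stood at 0.347, 0.382 and 0.448 RPKM in shHIF1A, against 5.03, 6.52 and 6.48 RPKM in control. The HIF1A shRNA left 66 reads of ANGPT2 in 3 libraries, and the log2 difference of -2.86 ± 0.12 was the largest of any of the 5 members from control (adjusted p = 1.28e-10). KC7F2 moved ANGPT2 the other way, to 14.8, 15.5 and 13.7 RPKM in KC7F2, which rose by 1.23 ± 0.12 against control (adjusted p = 2.48e-05). All 3 KC7F2 libraries were above all 3 control libraries, and those were above all 3 shHIF1A libraries. Set against each other, shHIF1A was lower than KC7F2 (-4.09 ± 0.12, adjusted p = 1.49e-12).

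FOXA1 knockdown lowered ANGPT2 as well. The gene stood at 2.00, 1.86 and 1.83 RPKM in shFOXA1, a log2 difference of -1.43 ± 0.12 from control (adjusted p = 2.08e-07). With KC7F2, ANGPT2 stood at 4.13, 4.25 and 3.90 RPKM in shFOXA1+KC7F2, which was lower than KC7F2 alone (-1.72 ± 0.12, adjusted p = 2.89e-08) and higher than shFOXA1 (0.94 ± 0.12, adjusted p = 0.000196). KC7F2 raised ANGPT2 at both FOXA1 levels, and the difference between these effects, -0.29 ± 0.17, did not pass the test (adjusted p = 0.830).

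In HIF1A-depleted cells FOXA1 knockdown did not change ANGPT2 past the test. It stood at 0.524, 0.410 and 0.653 RPKM in shFOXA1+shHIF1A, in a range that overlapped shHIF1A, with a log2 difference of 0.20 ± 0.12 (adjusted p = 0.309). The effect of FOXA1 knockdown on ANGPT2 differed by 1.63 ± 0.17 between cells with and without the HIF1A shRNA (adjusted p = 1.56e-05). ANGPT2 was so low in shHIF1A that even its complete loss would be smaller on this scale than the -1.43 in shFOXA1 against control. A positive difference was thus partly fixed in advance. Adding the HIF1A shRNA to FOXA1 knockdown lowered ANGPT2 (-1.23 ± 0.12, adjusted p = 8.8e-07), and shFOXA1+shHIF1A was lower than shFOXA1+KC7F2 (-2.16 ± 0.12, adjusted p = 1.95e-09). These ANGPT2 calls held in all 30 other settings. The pseudocount holds down differences at such low levels, and that between shHIF1A and control ran from -3.92 to -2.32 over the settings that kept all libraries or left out control 1, KC7F2 1 and KC7F2 3 together. ANGPT2 shares 78 exon bases with MCPH1 on the opposite strand, and whether the libraries kept strand is not given in the sources used here. MCPH1 ran from 3.68 to 6.90 RPKM over the 18 libraries, and the part of this overlap in the ANGPT2 values was not tested.

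ANGPTL4, a secreted inhibitor of lipoprotein lipase that is induced by fasting and low oxygen, had 1 to 17 reads per library and 0.161 to 1.03 RPKM. It stood at 0.479, 0.230 and 0.177 RPKM in shHIF1A, against 0.601, 0.770 and 0.865 RPKM in control. These groups did not overlap, but in the fit without the limit on low values the log2 difference of -0.66 ± 0.27 did not pass the test (adjusted p = 0.0895). ANGPTL4 averaged 0.762 ± 0.369 RPKM in shFOXA1 (SD, n = 3), a range that spanned control, and 0 of its 11 comparisons passed in that fit (1 had an unadjusted p under 0.05).

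ADM, whose peptide relaxes vessels through CALCRL with RAMP2 or RAMP3, lies on chromosome 11 (chr11:10304680-10307397, plus strand) and had 10 to 37 reads per library. Its sequence before the RefSeq start (GRCh38.p14, chr11:10304823-10305072, plus strand) is shown because ADM was the only member besides VEGFA that was higher after FOXA1 knockdown, and it too holds 1 HIF core motif in capitals and no forkhead motif.
ADM: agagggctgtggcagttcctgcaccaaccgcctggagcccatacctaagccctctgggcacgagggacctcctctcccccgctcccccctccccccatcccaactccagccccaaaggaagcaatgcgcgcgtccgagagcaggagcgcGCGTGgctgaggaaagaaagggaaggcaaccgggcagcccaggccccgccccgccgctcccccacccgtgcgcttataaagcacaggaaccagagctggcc
ADM stood at 2.70, 3.81 and 1.22 RPKM in shFOXA1, against 1.16, 0.869 and 0.915 RPKM in control. The groups did not overlap, although shFOXA1 3 was close to control 1. The log2 rise was 0.96 ± 0.27 (adjusted p = 0.0164). It lost its call without control 2 (adjusted p = 0.0543), shFOXA1 1 (0.0595) or shFOXA1 2 (0.0911), and in a fit to only these groups (0.114).

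No other comparison of ADM passed the test. It stood at 2.12, 1.16 and 1.12 RPKM in shFOXA1+shHIF1A and at 1.44, 1.22 and 1.79 RPKM in shFOXA1+KC7F2, both overlapping shFOXA1. The log2 differences from shFOXA1 were -0.58 ± 0.27 (adjusted p = 0.105) and -0.54 ± 0.27 (adjusted p = 0.341). The library shFOXA1 3 carried weight here, since without it they were -0.95 (adjusted p = 0.00497) and -0.91 (adjusted p = 0.0464), and the first also passed without shFOXA1+shHIF1A 1 (adjusted p = 0.0418) or with each library's length trend removed (0.0329). ADM averaged 1.40 ± 0.269 RPKM in shHIF1A and 1.14 ± 0.140 RPKM in KC7F2, against 0.982 ± 0.158 RPKM in control (SD, n = 3 each), with adjusted p of 0.324 and 0.867. The effect of FOXA1 knockdown on ADM differed by -0.93 ± 0.38 between cells with and without the HIF1A shRNA, which did not pass (adjusted p = 0.169), but it was -1.30 without shFOXA1 3 (adjusted p = 0.0201).

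EDN1, the precursor of the vasoconstrictor endothelin-1, lies on chromosome 6 (chr6:12290363-12297194, plus strand) and was read 4 to 137 times per library. Its direction was opposite to that of ANGPT2 under the HIF1A shRNA. Among the printed sequences, that of EDN1 (GRCh38.p14, chr6:12290111-12290360, plus strand) is the one that holds both kinds of motif, a HIF core on the opposite strand that begins 123 bases before the start and the forkhead motif TGTTTAC that begins 60 bases before it, both in capitals. TGTTTAC alone is in 3.42% of all windows. RefSeq gives 3 starts for EDN1, and the one nearest to the gene start above is shown. Of the windows at the other starts, 1 holds 3 HIF core matches and 1 forkhead match, and 1 holds 0 of either.
EDN1: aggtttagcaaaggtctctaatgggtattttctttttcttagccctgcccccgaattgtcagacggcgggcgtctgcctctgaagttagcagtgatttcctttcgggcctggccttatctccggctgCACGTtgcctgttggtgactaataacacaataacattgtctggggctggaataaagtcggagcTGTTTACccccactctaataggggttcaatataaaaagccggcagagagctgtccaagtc
EDN1 stood at 4.63, 5.71 and 5.57 RPKM in shHIF1A, against 1.80, 1.77 and 0.923 RPKM in control. It stood at 4.24, 2.87 and 4.01 RPKM in shFOXA1+shHIF1A, against 0.371, 0.702 and 0.552 RPKM in shFOXA1. Every library with the HIF1A shRNA was above every library without it. EDN1 rose by 1.57 ± 0.27 on the log2 scale in shHIF1A against control (adjusted p = 0.000195) and by 2.01 ± 0.27 in shFOXA1+shHIF1A against shFOXA1 (adjusted p = 2.11e-05).

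FOXA1 knockdown moved EDN1 down. The 3 shFOXA1 libraries, which hold 21 reads of EDN1 in total, were below the 3 control libraries (-0.92 ± 0.27, adjusted p = 0.0193). Leaving out control 1 ended this call (adjusted p = 0.0782), as did leaving out control 2 (0.0744) or shFOXA1 1 (0.0762), and it did not pass in a fit to only these groups (0.0562) or without control 1, KC7F2 1 and KC7F2 3 together (0.102). With KC7F2, EDN1 stood at 0.207, 1.07 and 0.272 RPKM in shFOXA1+KC7F2, against 1.18, 0.985 and 1.33 RPKM in KC7F2. These ranges overlapped through shFOXA1+KC7F2 2, and the log2 difference of -0.81 ± 0.27 (adjusted p = 0.0295) was lost in 9 of 29 other settings, with -0.71 and an adjusted p of 0.0558 under median-ratio scaling and -0.45 and 0.206 with the length trend removed. It was also lost without KC7F2 1 (adjusted p = 0.0780), KC7F2 3 (0.0922), shFOXA1+KC7F2 1 (0.137) or shFOXA1+KC7F2 3 (0.108). In HIF1A-depleted cells the 3 libraries of shFOXA1+shHIF1A were below those of shHIF1A, with a difference of -0.47 ± 0.27 that did not pass (adjusted p = 0.272), nor did the difference between the FOXA1 effects with and without the HIF1A shRNA (0.44 ± 0.38, adjusted p = 0.541).

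KC7F2 did not change EDN1 past the test, either in cells with the control vector (-0.23 ± 0.27, adjusted p = 0.773) or on top of FOXA1 knockdown (-0.12 ± 0.27, adjusted p = 0.891). EDN1 was higher in shHIF1A than in KC7F2 (1.80 ± 0.27, adjusted p = 5.35e-05) and higher in shFOXA1+shHIF1A than in shFOXA1+KC7F2 (2.13 ± 0.27, adjusted p = 1.16e-05).

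**Figure D4:**
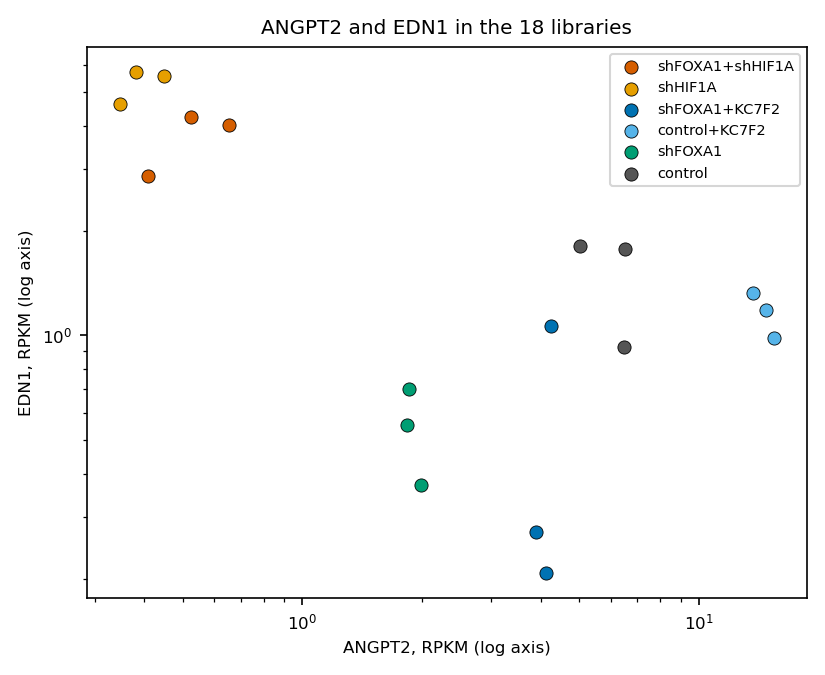
EDN1 (vertical axis) against ANGPT2 (horizontal axis) in the 18 libraries, both in RPKM on logarithmic axes and coloured by group. The 6 libraries with the HIF1A shRNA lie apart, with ANGPT2 at most 0.653 RPKM and EDN1 at least 2.87 RPKM, and the 3 KC7F2 libraries lie farthest to the right.

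Over the 18 libraries, on log2(RPKM + 0.5), Pearson's r was 0.80 between VEGFB and ANGPT2, -0.65 between VEGFA and EDN1, -0.61 between ANGPT2 and EDN1 and 0.12 between VEGFA and ANGPT2. The libraries fall into groups, so such values mostly describe the order of the group means and carry no p. Among 11357 genes of sufficient level, the 3 whose pattern was most like that of VEGFA were MIR210HG (r = 0.896), HK2 (0.890) and SLC2A1 (0.886). Among those most like VEGFB were TTC13 (0.936) and CYB561 (0.921), and those most like ANGPT2 were MID1IP1 (0.978), CAMK2D (0.964) and DGKH (0.961). EDN1 was matched most closely by FAM155B (0.962), TSPAN1 (0.955) and KLC2 (0.954). ADM had no match above 0.769, the value for LPAR6, followed by ZNF706 (0.745) and OGFRL1 (0.732).

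The receptors on which these ligands act were largely missing from these cells. Like the members, the 4 lists of related genes were drawn up with earlier results of these data known. Of 24 genes for receptors and ligand processing, 12 passed the limit on low values. FLT1, KDR, FLT4, TEK, TIE1 and RAMP3 stayed at or under 0.176 RPKM in every library, RAMP2 and EDNRB were listed at 0 throughout, EDNRA reached 0.326 RPKM and CALCRL 0.928 RPKM. The VEGF co-receptor NRP1 was present and rose to 63.8 ± 5.14 RPKM in shHIF1A, against 34.0 ± 4.73 RPKM in control (log2 difference 0.90 ± 0.11, adjusted p = 1.02e-05). Within the 12, 9 rose and 0 fell with the HIF1A shRNA, where 42% of all genes changed (median 0.65, beside 0.07 over all genes), among them PAM (1.34 ± 0.19, adjusted p = 3.48e-05), which amidates the ADM peptide. FOXA1 knockdown raised 1 of 12 and lowered 3 (24.1% of all genes changed, list median 0.08), and KC7F2 raised 1 (2.04% of all genes changed). The count under FOXA1 knockdown was 2 in place of 4 without shFOXA1 2 or shFOXA1 3, and that under KC7F2 was 2 in place of 1 without control 1 or KC7F2 2. ACKR3, a scavenging receptor for ADM, was the one that rose in both, to 48.4 ± 6.21 RPKM in shFOXA1 and 24.0 ± 2.83 RPKM in KC7F2, against 14.1 ± 0.683 RPKM in control (adjusted p = 8.52e-08 and 0.0065). RAMP1, by contrast, fell to 38.3 ± 2.10 RPKM in shFOXA1, against 71.2 ± 28.2 RPKM in control (adjusted p = 0.0181).

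A list of 38 other angiogenic genes was mostly of ligands but held NOS3, which encodes the endothelial nitric oxide synthase, an enzyme, and 20 of the 38 were tested. FOXA1 knockdown raised 8, NOS3 among them, and lowered 2 (24.1% of all genes changed, and the median was 0.24, beside -0.09 over all genes). EDN2, the paralogue of EDN1, rose to 20.8 ± 3.73 RPKM in shFOXA1, against 2.94 ± 0.231 RPKM in control (2.62 ± 0.17, adjusted p = 1.43e-08), while EDN1 fell. CXCL8, an angiogenic chemokine, rose by 2.28 ± 0.23 and STC1 by 1.81 ± 0.18, and ANG, angiogenin, fell by 1.67 ± 0.28 (adjusted p = 0.000301). The HIF1A shRNA raised 11 and lowered 2 of the 20 (42% of all genes changed, list median 0.52), led by the Notch ligand JAG1, at 32.6 ± 1.76 RPKM in shHIF1A against 7.02 ± 0.727 RPKM in control. On top of FOXA1 knockdown it raised 7 and lowered 4, beside 37.5% of all genes: PTN, pleiotrophin, reached 49.2 ± 1.55 RPKM in shFOXA1+shHIF1A, against 0.518 ± 0.322 RPKM in shFOXA1 (5.66 ± 0.25, adjusted p = 2.44e-10), and STC1 fell to 0.500 ± 0.154 RPKM in shFOXA1+shHIF1A, against 4.12 ± 0.478 RPKM in shFOXA1. KC7F2 raised 2 and lowered 1 of the 20 (2.04% of all genes changed), with NOS3 at 3.75 ± 0.325 RPKM in KC7F2 against 1.88 ± 0.355 RPKM in control (adjusted p = 0.00148). These 3 calls were 1 without control 2, control 3 or KC7F2 1. Like ANGPT2, NOS3 rose with KC7F2 and fell with the HIF1A shRNA (-0.98 ± 0.13, adjusted p = 1.8e-05).

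A list of 25 genes, mostly angiogenesis inhibitors, also held the receptor NOTCH1 and the factors VASH2 and AGGF1, which are known to promote vessel growth. Of the 25, 15 were tested, and FOXA1 knockdown raised 5, NOTCH1 among them, and lowered 1 (24.1% of all genes changed, list median 0.20). THBS1, thrombospondin-1, reached 152 ± 7.46 RPKM in shFOXA1, against 45.8 ± 6.57 RPKM in control (1.73 ± 0.14, adjusted p = 9.94e-08). The HIF1A shRNA raised 7, with NOTCH1 and VASH2 among them, and lowered 1 (42% of all genes changed, list median 0.26), led by TIMP2 (2.17 ± 0.11, adjusted p = 9.13e-10). KC7F2 raised 0 and lowered 3 (2.04% of all genes changed), namely THBS1, SEMA3C and ADAMTS1, with THBS1 at 21.7 ± 3.80 RPKM in KC7F2. Of 26 regulators of these genes 22 were tested, and FOXA1 knockdown raised 10 and lowered 1 (24.1% of all genes changed, list median 0.32), among them FOXO3 (1.41 ± 0.10) and CITED2 (1.13 ± 0.10), a competitor of HIF1A for its coactivators. The HIF1A shRNA raised 9 and lowered 5 (42% of all genes changed), and 1 of the 5 was HIF1A, its own target. CITED2 rose with the HIF1A shRNA too (1.26 ± 0.10, adjusted p = 1.01e-07), while FOXO3 did not change past the test (-0.09 ± 0.10, adjusted p = 0.500). KC7F2 changed 0 of the 22 at an adjusted p under 0.05, both in limma and with voom weights (3 had an unadjusted p under 0.05 in limma), or 1 with median-ratio scaling or with the length trend removed.

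**Figure D5:**
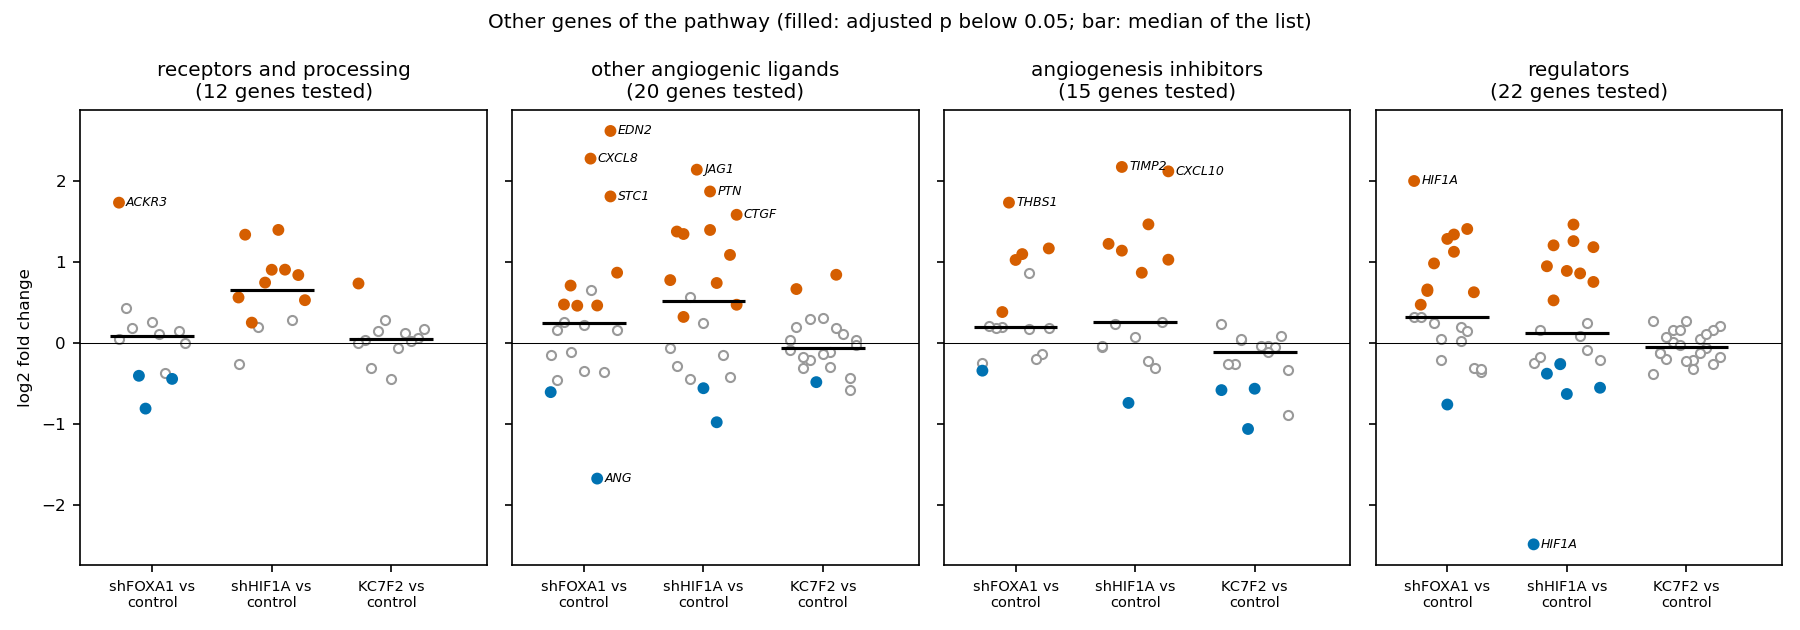
Difference in log2(RPKM + 0.5) from control (vertical axis) of the tested genes in 4 lists, for shFOXA1, shHIF1A and KC7F2 (horizontal axes). Points are genes, filled where the adjusted p is under 0.05, bars are list medians and names mark calls beyond 1.5. The receptor list has its highest median in shHIF1A, at 0.65, and few filled points in KC7F2.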

How the data were processed

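Total RNA was made into libraries with the NEBNext Ultra RNA kit, per the labels' protocols. The authors deposited RPKM values per gene and library. The submitters' processing notes name STAR and hg38. The counting program, the annotation and strandedness are not given in these sources. Of 26475 lines, 32 had no value and 26443 remained. No library was left out, and no 2 held the same values.

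Depth (3.26 to 12.1, in 1e6 reads) was recovered from the spacing of low values, and values of 12894 of 12900 tested genes came out as whole reads within 0.05 reads. At this depth counting error is part of the spread. limma 3.58.1 in R 4.3.3 fitted log2(RPKM + 0.5) of genes with at least 1 RPKM in 3 libraries, over 6 groups with 12 residual degrees of freedom, eBayes trend, two-sided. A fold change on this scale understates that of low genes. Benjamini-Hochberg adjustment ran over all tested genes in each of 11 comparisons, which share libraries, and adjusted p below 0.05 was called. The fit was tested on simulated data.

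The members and lists were chosen with earlier results of these data known. All 9 members are named, with FOXA1 and HIF1A, the first called genes of 4 lists by adjusted p (at most 4 per comparison) and the 3 genes most correlated with each tested member, of which 1 is not reported here. MCPH1, NOTCH1, VASH2, AGGF1, untested receptors and markers were named after their values were seen. Positions and the exon lengths used for the length trend are from GENCODE 29, and sequences are from RefSeq (GRCh38.p14). Same-numbered libraries deviated together little on average (mean r 0.018 over 45 pairs, 9 over 0.1). Libraries with different numbers had a mean r of -0.0092 over 90 pairs, 9 of these 90 over 0.1. Deviations from the group mean cancel within each group, so this mean largely follows from the first and is no independent comparison. No replicate block was used in the main fit.

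Other settings were pseudocounts of 0.1 and 1, no filter or 5 RPKM in 3 libraries, median-ratio and quantile scaling, robust eBayes, only the groups compared, the replicate block, removal of each library's length trend, leaving out control 1, KC7F2 1 and KC7F2 3 (where short genes read high), and each library left out. Added after the values were seen were voom weights on recovered reads and values of PGF and ANGPTL4 with no filter. Tables and figures were made in Python 3.11.15.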

Additional observations from a re-analysis of the deposited data

Results flagged for a closer look

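The effect of FOXA1 knockdown differed between cells with and without the HIF1A shRNA for 2 of the 5 tested factors, by a test of the difference itself. For VEGFA the difference was -0.78 ± 0.19 on the log2 scale (SE, adjusted p = 0.0210), with a log2 effect of -0.37 in HIF1A-depleted cells and of 0.40 in cells with the control vector. This VEGFA call was lost in 7 of 30 other settings. For ANGPT2 the difference was 1.63 ± 0.17 (adjusted p = 1.56e-05), with a log2 effect of 0.20 in HIF1A-depleted cells and of -1.43 in cells with the control vector. ANGPT2 stood at 0.529 ± 0.122 RPKM in shFOXA1+shHIF1A and 0.392 ± 0.0515 RPKM in shHIF1A (SD, n = 3 each), close to the pseudocount of 0.5, where the log2 scale understates differences. From the shHIF1A level even a complete loss of ANGPT2 would be smaller on this scale than -1.43, so a positive difference was partly fixed in advance. The call was kept with a pseudocount of 0.1 and with voom weights on recovered reads, where a fall of that size could have been seen. FOXA1 itself was less depleted in shFOXA1+shHIF1A than in shFOXA1, at 64.5 ± 5.77 RPKM against 34.1 ± 1.51 RPKM (SD, n = 3 each), and the part of that difference in either result was not tested.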

How the results depend on the processing

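Members called under FOXA1 knockdown were 4 of 5, but 1 in a fit to only the groups compared and fewer without control 1, KC7F2 1 and KC7F2 3. With at least 5 RPKM in 3 libraries, 2 of the 3 members tested were called. There no call changed, and ADM and EDN1 were no longer tested. Without control 1, KC7F2 1 and KC7F2 3, fewer members were also called for the interaction of both shRNAs and for FOXA1 knockdown in KC7F2-treated cells. The latter then rests on KC7F2 2 alone as its reference. The interaction called 1 in place of 2 with only the groups compared. Smaller fits have fewer degrees of freedom, and the cause was not tested otherwise. With each library left out in turn, members called were 2 to 4 under FOXA1 knockdown, 1 to 2 for KC7F2 on top of it, 1 to 2 for FOXA1 knockdown in HIF1A-depleted cells and 1 to 2 for the interaction. No called value changed sign. Some uncalled log2 differences did, and those of EDN1 varied most with the library left out. For KC7F2 on top of FOXA1 knockdown, VEGFA gave 0.015 after quantile scaling and 0.0087 with the length trend removed. With a library left out, VEGFA there ran from -0.10 to 0.033 and EDN1 from -0.48 to 0.090. VEGFA ran from -0.17 to 0.069 in shHIF1A against control and was -0.040 in shHIF1A against KC7F2 with the length trend removed. For FOXA1 knockdown in HIF1A-depleted cells, ADM was -0.038 with voom weights and ran from -0.20 to 0.15. For the interaction with KC7F2, EDN1 was -0.0047 with a pseudocount of 0.1 and -0.12 with voom weights, and ran from -0.25 to 0.34, and VEGFB from -0.12 to 0.22. ADM ran from -0.26 to 0.085 in shFOXA1+shHIF1A against shFOXA1+KC7F2. With the replicate block, all 55 member results kept their direction and call, and members called under FOXA1 knockdown were 4 as before. The block moved 1 of the other counts, receptors under KC7F2, to 2 in place of 1.

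Over all genes, calls under FOXA1 knockdown were 1696 in place of 3111 with only the groups compared, and under KC7F2 21 in place of 263. Without control 1, KC7F2 1 and KC7F2 3, only KC7F2 2 is left in its group. Fewer genes were then called under KC7F2, for FOXA1 knockdown in KC7F2-treated cells and for shHIF1A against KC7F2. Calls of the interaction with KC7F2 ran from 2 to 30 around 10. With a library left out, calls ran from 150 to 497 under KC7F2 and from 306 to 643 around 526 for KC7F2 on top of FOXA1 knockdown. They were 1201 in place of 1873 for FOXA1 knockdown in HIF1A-depleted cells without shHIF1A 2, and 2811 in place of 4250 for it in KC7F2-treated cells without KC7F2 1. For receptors, FOXA1 knockdown called 2 with median-ratio scaling and 1 with only the groups compared, in place of 4, and KC7F2 0 to 3 in place of 1. For the list of mostly other ligands, calls with only the groups compared were 6 in place of 10 under FOXA1 knockdown and 0 in place of 3 under KC7F2, and those of mostly inhibitors under KC7F2 were also 0 in place of 3. ADM, EDN1, PGF and ANGPTL4 rest on few reads, which limits what these data can show of them.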
